A study of Mus musculus with 108 samples.

Results

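The hearts of DBA2/J mice were compared with those of 5 other inbred strains, and the genes whose DBA2/J signal stood apart from every one of them are described. The 3 DBA2/J heart arrays, and 3 heart arrays each of C57BL/6J, A/J, AKR/J, C3HeB/FeJ and 129S2, form the 18 heart arrays of a survey that also holds brain, kidney, liver, lung and testis of the same strains, again with 3 arrays per strain and tissue. Every mouse was a male of 11 to 14 weeks with no treatment named. The labels state that 129S2 came from Charles River in France and the other strains, DBA2/J included, from The Jackson Laboratory. Titles name 1 animal per array, whereas the labelling protocol speaks of pools, so it is not certain that an array is 1 mouse, and p-values measure the spread between these arrays. At what hour the organs were taken is not stated in the labels.

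An inbred strain is in effect a single genotype, so a strain difference joins inherited differences with anything else that its 3 mice shared. DBA/2 mice are known for pigment alleles, among them dilute in the myosin gene Myo5a, and for calcified lesions of the heart. The adult heart burns mainly fatty acids in its many mitochondria, beats through calcium released from the sarcoplasmic reticulum, and secretes natriuretic peptides mostly from the atria. Many heart genes also follow the circadian clock, a feedback loop in which CLOCK and BMAL1 (the product of Arntl) switch on their own repressors.

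Signals are on the log2 scale of hybridisation intensity, 1 probe set per gene, over 18193 genes. A difference is the DBA2/J mean minus the mean of the 5 strain means, on the same scale, so that 1 unit is a doubling of signal. It was tested with limma and adjusted by the Benjamini-Hochberg method over all genes, with a threshold of 0.05. A gene was called apart when this difference and all 5 differences from single strains passed in the same direction. Levels of different genes are not compared, because probe sets differ in how brightly they hybridise. Sequence differences between strains under a probe change a signal without a change in RNA, and this was not tested.

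Median signals ran from 5.08 to 5.09 on the DBA2/J arrays and from 5.08 to 5.16 over all 18 heart arrays. The deposited values were quantile normalized, so near-equal medians do not measure array quality. Pairs of DBA2/J arrays correlated at 0.996 (Pearson, median of 3 pairs over probe sets), and pairs within any strain at 0.986 to 0.996. The lowest within-strain pairs were those of 129S2 array 2, at 0.986 and 0.988. The labelled tissue was borne out by 13 heart muscle markers, whose mean signal lay between 13.42 and 13.46 on DBA2/J arrays and between 13.08 and 13.48 on the others. The 3 arrays of a group limit the precision of every value.

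Atrial muscle genes were low on all DBA2/J arrays, and 3 of 6 atrial markers passed as lower, where 4.82% of all genes did. The mean of 6 atrial markers lay between 6.64 and 7.79 in DBA2/J hearts and between 6.11 and 12.07 on the other arrays. It was as low on 1 array each of C57BL/6J (6.11), AKR/J (6.95) and 129S2 (7.09), while every A/J and C3HeB/FeJ array was at 9.46 or above. Sarcolipin (Sln), the calcium pump inhibitor of the atria, gave 4.26, 6.33 and 4.14 in DBA2/J hearts and between 4.17 and 13.34 (median 12.42) on the others, with a difference of -5.79 ± 1.79 (SE) and an adjusted p of 0.0403 by limma. The atrial light chain Myl7 differed by -5.23 (adjusted p = 0.0474, limma) and Myl4 by -4.83 (adjusted p = 0.0589, limma). For both genes the DBA2/J arrays lay within the range of the others. Fewer cells of a type and less RNA per cell cannot be told apart in whole-tissue RNA.

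Red-cell markers were also low. The mean of the 6 measured erythroid markers was 6.71 to 7.02 in DBA2/J hearts and 6.77 to 8.60 on the others, and 4 of the 6 were lower, where 4.82% of all genes were. Alas2, which starts haem synthesis in red cells, gave 8.46, 8.52 and 9.50 in DBA2/J hearts and between 8.92 and 12.12 (median 10.81) elsewhere (difference -1.80, adjusted p = 0.00732, limma). The levels of 7 adipose markers (6.28 to 6.38 against 6.24 to 8.43) and of 9 mesothelial markers (5.17 to 5.49 against 5.12 to 6.62) sat at the low end of the range as well. Endothelial markers (9.22 to 9.26 against 8.93 to 9.39), fibroblast markers (10.14 to 10.27 against 9.77 to 10.88) and macrophage markers (7.80 to 7.91 against 7.41 to 8.24) lay inside the range of the other strains. The comparisons of strains in heart were therefore repeated with the atrial or the erythroid level of each array as a covariate. This alternative was chosen after seeing the data. Both levels were low on the DBA2/J arrays, so strain and covariate overlap in part, and a call can be lost without a smaller difference. The heat shock gene Hsph1 differed by 0.90, and by 0.91 with the erythroid covariate, where it did not pass. The immediate-early gene Fos went from -2.03 to -0.88 with that covariate. A lost call therefore does not measure the part of the markers in a difference. The tests within other tissues, and of heart against them, were not repeated with a covariate. The plot of the marker levels shows both lists array by array.

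**Figure D1:**
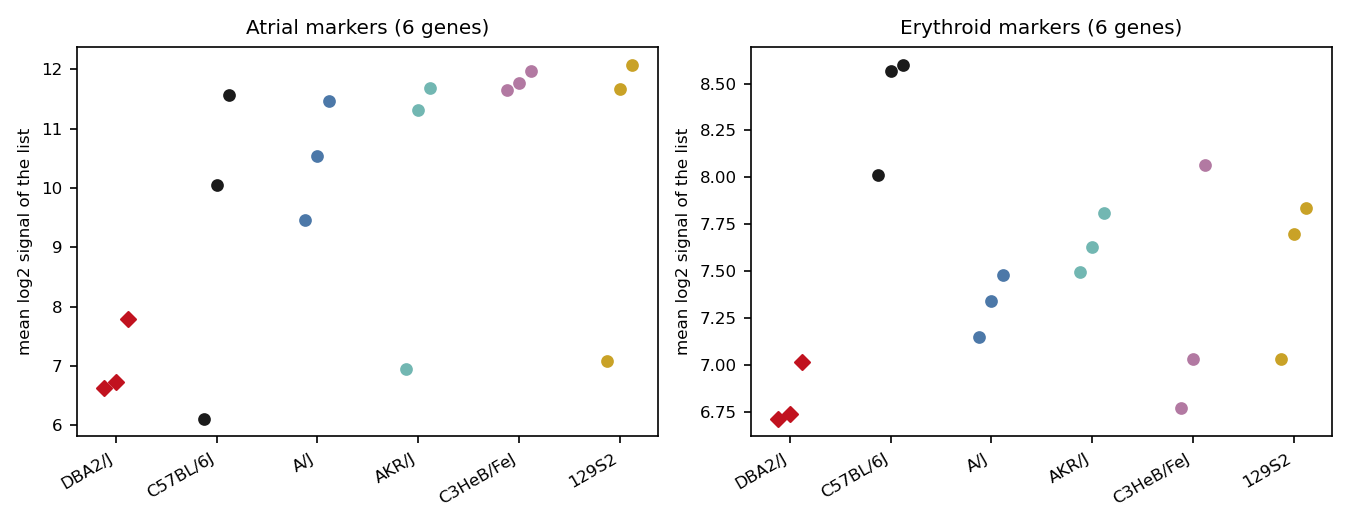
Mean log2 signal of 6 atrial markers (left) and of 6 erythroid markers (right) on each heart array, 3 points per strain, with DBA2/J at the left of each panel. The DBA2/J points lie between 6.64 and 7.79 for the atrial list and between 6.71 and 7.02 for the erythroid list, and only 3 arrays of other strains share the low atrial level.

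DBA2/J hearts differed from the mean of the other strains in 2454 genes (13.5% of those tested), 1578 of them higher (8.67%) and 876 lower (4.82%). The genes apart from all 5 strains numbered 224 (1.23%), of which 147 were higher (0.808%) and 77 lower (0.423%). By the same rule 167 genes were apart in C57BL/6J hearts, 132 in 129S2, 67 in AKR/J, 40 in C3HeB/FeJ and 38 in A/J. The 6 contrasts share their arrays and differ in spread, so these counts are a description. The median size of the difference among apart genes was 0.58 for the higher ones (range 0.26 to 3.22) and 0.81 for the lower ones (range 0.29 to 2.94).

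In 145 of the 147 higher genes all 3 DBA2/J arrays lay above all 15 others, and in 76 of the 77 lower genes they lay below. Over all genes the 3 arrays lay above the rest in 754 (4.14%) and below it in 287 (1.58%). The same arrays chose the apart genes, so their lack of overlap follows largely from the rule and is no separate result. Just inside the rule were Slc25a35, Katnal1 and Rps6ka5, with largest pairwise adjusted p of 0.0498, 0.0495 and 0.0492 by limma, and just outside it Qrsl1, Gm3912 and Pacc1 at 0.0509, 0.051 and 0.0513. Without 1 DBA2/J array the called genes numbered 788 to 1012 higher and 428 to 510 lower, and the apart genes 145, 144 and 122 without arrays 1, 2 and 3. Without 129S2 array 2, 333 genes were apart. With the atrial level as a covariate 97 genes were apart, 85 of them among the 224. With the erythroid level there were 90, of which 61 were among the 224.

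The genes highest above every other strain were a mixed group of receptor, peptide, protease and muscle genes. Stab2, a scavenger receptor that clears hyaluronan in sinusoidal endothelium, gave 7.63, 7.48 and 7.96 in DBA2/J hearts and between 4.21 and 4.71 (median 4.46) on the 15 other arrays. Its difference of 3.22 ± 0.099 (SE), 9.34-fold in signal, had an adjusted p of 4.64e-13 by limma. No array of another strain came within 2 units of the DBA2/J arrays. Hamp2, a relative of the iron hormone hepcidin, gave 10.03, 10.73 and 10.76 against 6.94 to 8.42 (median 7.86), and was 6.91-fold higher (adjusted p = 3.82e-07, limma). Nebulin (Neb), the giant ruler protein of the skeletal muscle thin filament, gave 5.94, 5.77 and 6.80 against 3.41 to 4.37 (median 3.85) (difference 2.33 ± 0.17, adjusted p = 6.46e-08, limma). The third DBA2/J array was the highest, and even the lowest lay far above every other strain's array.

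Mast cell protease 2 (Mcpt2) gave 6.90, 6.11 and 6.16 in DBA2/J hearts and between 3.90 and 4.47 (median 4.30) elsewhere, a 4.34-fold difference. The alpha-1-antitrypsin gene Serpina1b, an inhibitor of neutrophil elastase made mainly by the liver, gave 8.50, 8.42 and 8.56 against 4.04 to 6.99 (median 6.10) and was 6.01-fold higher. Sfi1, which codes for a centrin-binding protein of the spindle poles, gave 7.12, 6.94 and 7.68 against 4.45 to 5.30 (median 4.93) and was 4.91-fold higher. All 3 genes were free of overlap between DBA2/J and the rest. The second probe sets of Sfi1 and Hamp2, dim in heart, differed by -0.0087 and -0.087 only, whereas the second Serpina1b probe set differed by 2.34.

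Nmrk2, a muscle kinase that makes the NAD precursor nicotinamide mononucleotide, gave 9.19, 9.58 and 9.70 in DBA2/J hearts and between 6.77 and 8.63 (median 7.48) elsewhere (3.6-fold, adjusted p = 2.48e-06, limma). C3HeB/FeJ came nearest, with a mean of 8.33 against 9.49 ± 0.27 (SD, n = 3) in DBA2/J. The clock-linked repressor Nfil3 differed by 1.68, the tubulin gene Tuba8 by 1.04, and the transcripts 6330403K07Rik, 2200002J24Rik and E330020D12Rik by 2.13, 1.57 and 1.18. Of these 12 genes, 10 were still apart with either covariate. Serpina1b was not with the erythroid covariate, nor was Tuba8 with either one.

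**Figure D2:**
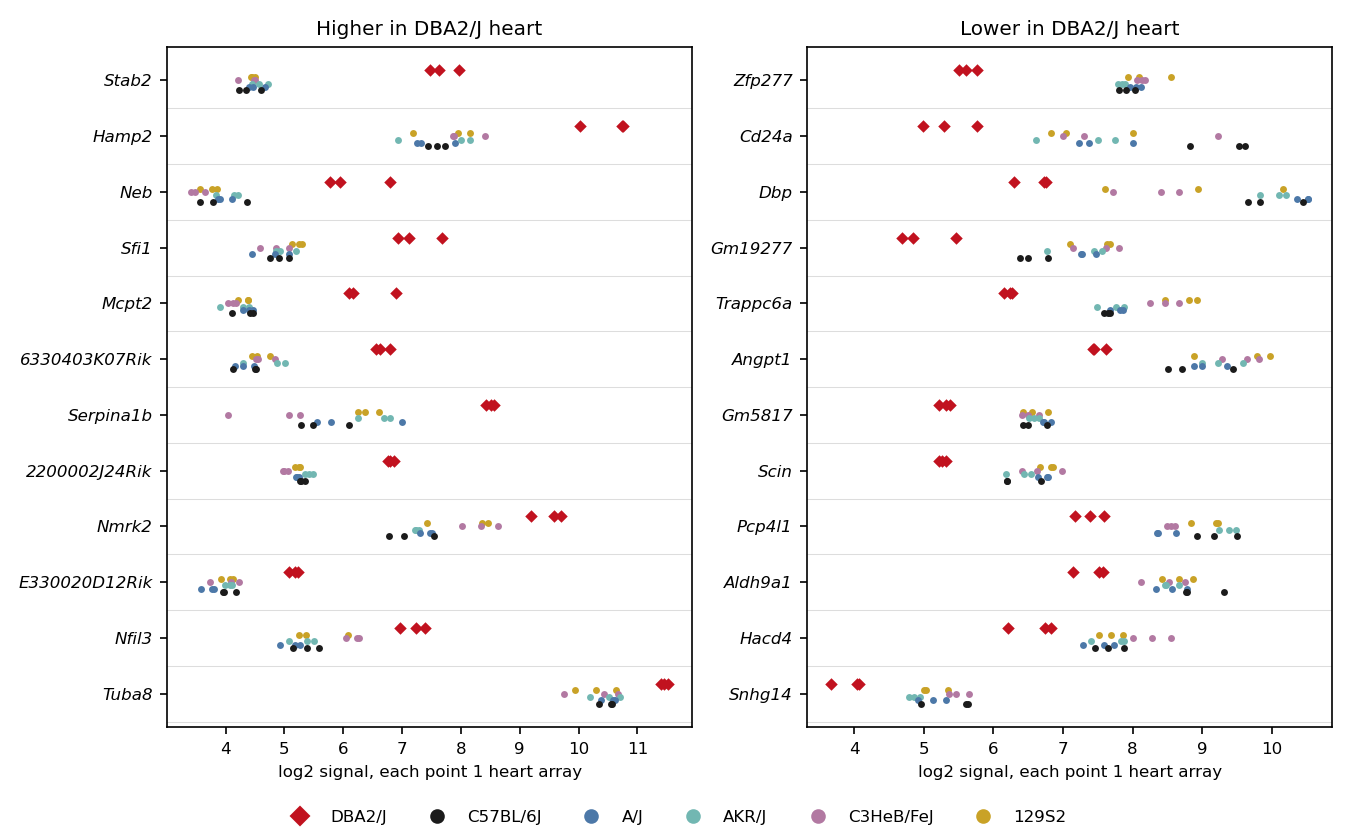
Log2 signal on each heart array (x axis) of the 12 higher genes (left) and 12 lower genes (right) with the largest distance from the nearest other strain, DBA2/J as red diamonds above the other strains' circles in each row. No DBA2/J diamond overlaps a circle in any of the 24 rows; Stab2 runs from 7.48 to 7.96 in DBA2/J and from 4.21 to 4.71 elsewhere.

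Among the lower genes the largest difference was in the clock output factor Dbp, described with the clock below. Zfp277, a zinc finger protein, gave 5.61, 5.50 and 5.77 in DBA2/J hearts and between 7.79 and 8.54 (median 8.03) on the others, 5.27-fold lower (difference -2.40 ± 0.092 SE, adjusted p = 7.86e-12, limma). Its second probe set, dim in heart, differed by 0.027. Trappc6a, a subunit of a vesicle-tethering complex, gave 6.24, 6.15 and 6.27 against 7.49 to 8.93 (median 7.86) and was 3.59-fold lower. The second Trappc6a probe set, also dim, differed by -0.19. Neither gene had a DBA2/J array within 1 unit of another strain's array.

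Angiopoietin 1 (Angpt1), the ligand through which mural and muscle cells steady the endothelial receptor Tie2, gave 7.44, 7.62 and 7.42 in DBA2/J hearts and between 8.51 and 9.97 (median 9.28) elsewhere (3.43-fold lower, adjusted p = 1.23e-05, limma). A second Angpt1 probe set differed by -1.91. Cd24a, a glycoprotein on the surface of immature and red blood cells, gave 4.98, 5.28 and 5.77 against 6.61 to 9.61 (median 7.50). Its difference of -2.51 was -1.19 with the erythroid covariate, and the part of the red-cell level in it was not tested further. The actin-severing protein scinderin (Scin) differed by -1.32 and Pcp4l1, a small relative of a calmodulin-binding peptide, by -1.54.

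Aldh9a1, an aldehyde dehydrogenase of carnitine synthesis, differed by -1.22, and the fatty-acid elongation gene Hacd4 by -1.18. Gm19277 and Gm5817 differed by -2.23 and -1.30, and the noncoding host transcript Snhg14 by -1.28. The Snhg14 probe sets disagreed, 1 of the other 2 passing at 1.05 in the opposite direction. Dbp, Zfp277, Trappc6a, Pcp4l1, Gm5817 and Snhg14 were apart with both covariates. Cd24a was apart with neither, and Angpt1, Scin, Aldh9a1, Hacd4 and Gm19277 were not apart with the erythroid one.

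The circadian clock was the gene list with the largest share of called genes among the lists of more than 10 genes. Of 18 clock genes measured, 4 were higher and 11 lower in DBA2/J hearts, with a median difference of -0.59, against 8.67% higher, 4.82% lower and a median of -0.0084 over all genes. Those that were apart were Nfil3, Cry1 and Clock on the higher side and Dbp, Nr1d1 and Nr1d2 on the lower side. With either covariate 4 were higher and 9 lower, the calls of Per1 and Per2 being lost with the atrial one and those of Per1 and Bhlhe41 with the erythroid one.

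The activators Arntl and Clock were higher, as were Cry1 and Nfil3. Arntl gave 8.17, 8.49 and 8.28 in DBA2/J hearts and between 5.49 and 7.87 (median 6.53) on the others, a 3.26-fold difference (adjusted p = 0.000196, limma). All DBA2/J arrays lay above the rest, the nearest strain mean being that of C3HeB/FeJ at 7.45. Its partner Clock gave 8.27, 8.52 and 8.70 against 7.43 to 8.14 (median 7.82). The repressor Cry1, which peaks late in the cycle, gave 5.44, 5.74 and 5.68 against 4.33 to 5.16 (median 4.97). Nfil3, which opposes Dbp at the same DNA elements, gave 6.96, 7.24 and 7.39 against 4.93 to 6.26 (median 5.39) (3.21-fold, adjusted p = 4.63e-07, limma). None of these 4 genes overlapped between DBA2/J and the rest.

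The 11 lower genes were the output factors Dbp, Hlf and Tef and the repressors or modulators Nr1d1, Nr1d2, Per1, Per2, Per3, Cry2, Ciart and Bhlhe41. Dbp gave 6.76, 6.30 and 6.72 in DBA2/J hearts and between 7.61 and 10.52 (median 9.83) elsewhere, 7.65-fold lower (difference -2.94 ± 0.32 SE, adjusted p = 8.73e-06, limma). Its nearest neighbours were C3HeB/FeJ (8.26) and 129S2 (8.90), both below the other 3 strains, of which C57BL/6J was lowest at 9.98. Dbp was no longer apart without DBA2/J array 2 or 3, without C3HeB/FeJ array 1 or 3, or with a trended and robust prior, although its mean difference passed in each case. Nr1d1, a REV-ERB repressor of Arntl, gave 8.21, 8.04 and 8.39 in DBA2/J hearts against 8.70 to 9.65 (median 9.27). The other REV-ERB gene, Nr1d2, gave 9.72, 9.57 and 9.80 against 10.37 to 11.20 (median 11.01). For both genes the DBA2/J arrays lay below all others.

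The period gene Per3 differed by -1.17, Per1 by -0.68 and Per2 by -0.60, Ciart by -1.42, Hlf by -0.88, Tef by -0.82, Cry2 by -0.58 and Bhlhe41 by -0.45. For Per1, Per2, Per3, Ciart and Bhlhe41 the DBA2/J arrays overlapped with arrays of 129S2 or C3HeB/FeJ. The remaining clock genes, Npas2 (0.29), Rora (-0.12) and Bhlhe40 (-0.33), did not pass. Cirbp, a cold-inducible RNA-binding protein linked to the clock and singled out after its value was seen, was apart at -0.72.

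The same clock genes were measured in the other tissues, which by the titles come from the heart animals in DBA2/J but in part from other animals in C57BL/6J and 129S2. Arntl was higher in DBA2/J kidney (2.17), lung (1.96), liver (1.63) and brain (0.47), and lower in testis (-0.29). For Dbp the kidney value was -2.80, that of lung -3.11, that of liver -3.18, that of brain -0.86 and that of testis -0.21. Nfil3 was 1.90, 0.95, 0.89 and 0.82 in kidney, lung, liver and brain, and -0.0092 in testis. Dbp, Nfil3, Nr1d1, Nr1d2, Cry1 and Clock each passed in the heart direction in 4 of the 5 other tissues.

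**Figure D3:**
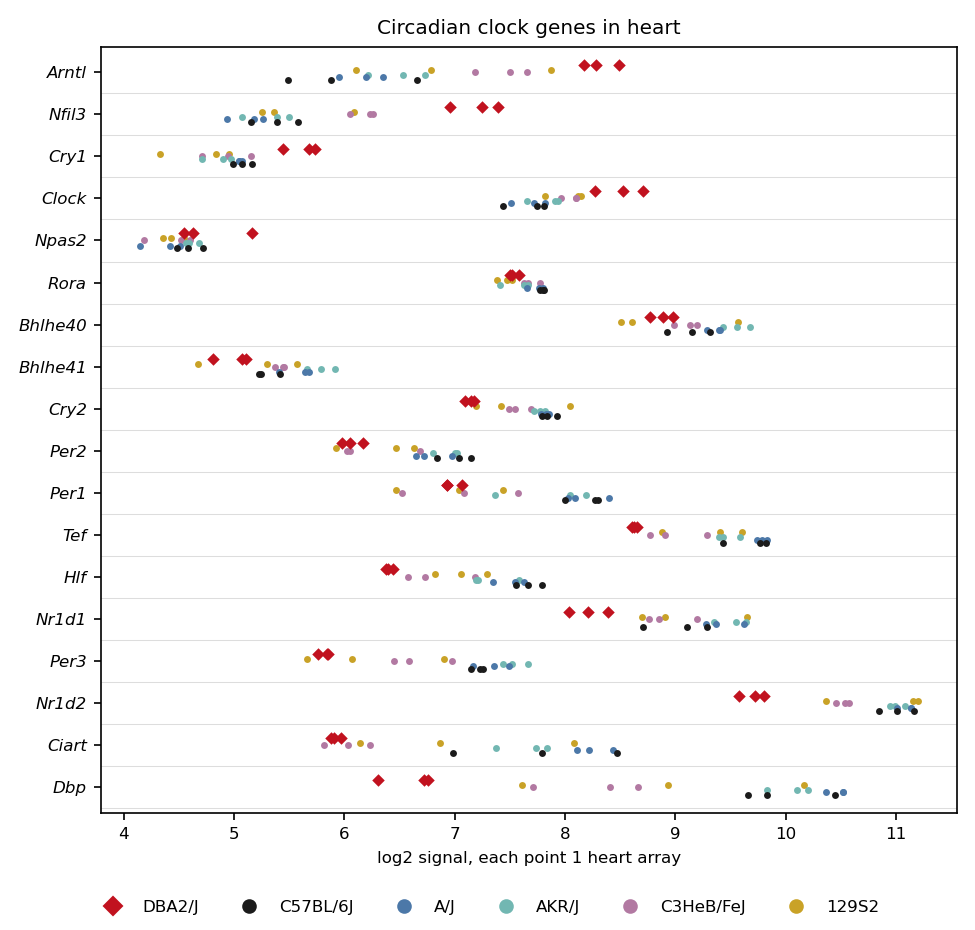
Log2 signal on each heart array (x axis) of the 18 clock genes, ordered by the DBA2/J difference, DBA2/J as red diamonds above the other strains' circles. Diamonds lie right of every circle for Arntl, Nfil3, Cry1 and Clock, and left of every circle for Dbp, Nr1d1, Nr1d2, Hlf, Tef and Cry2.

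The promoters of clock genes carry the short elements through which the loop acts. Of the heart result 4 genes are shown because the window of each matches a string searched for. The windows run from 250 bases before to 50 bases after a gene's start, on the gene's strand, from RefSeq on GRCm38.p6. Searched on both strands were the E-box CACGTG bound by CLOCK and BMAL1, and the D-box forms TTATGTAA and TTATGCAA bound by Dbp and Nfil3. The string TNGGTCA was searched as a loose form of the core of the element shared by ROR and REV-ERB proteins. Its N admits any base, where that element has A or G. Capitals mark the matches, of which none overlaps another.
Arntl (chr7:113207215-113207514, plus strand): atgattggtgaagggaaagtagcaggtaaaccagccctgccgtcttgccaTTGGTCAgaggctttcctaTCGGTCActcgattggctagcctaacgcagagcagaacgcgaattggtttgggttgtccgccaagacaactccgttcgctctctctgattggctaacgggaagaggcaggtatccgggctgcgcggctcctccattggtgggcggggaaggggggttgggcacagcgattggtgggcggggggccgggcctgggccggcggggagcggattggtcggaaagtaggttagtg
Nfil3 (chr13:52980990-52981289, minus strand): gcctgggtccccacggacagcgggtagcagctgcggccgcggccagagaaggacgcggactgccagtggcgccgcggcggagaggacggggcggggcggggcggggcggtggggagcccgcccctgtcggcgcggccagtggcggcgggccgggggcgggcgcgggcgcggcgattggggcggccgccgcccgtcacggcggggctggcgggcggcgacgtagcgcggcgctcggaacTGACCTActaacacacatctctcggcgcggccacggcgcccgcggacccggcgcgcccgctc
Ciart (chr3:95882179-95882478, minus strand): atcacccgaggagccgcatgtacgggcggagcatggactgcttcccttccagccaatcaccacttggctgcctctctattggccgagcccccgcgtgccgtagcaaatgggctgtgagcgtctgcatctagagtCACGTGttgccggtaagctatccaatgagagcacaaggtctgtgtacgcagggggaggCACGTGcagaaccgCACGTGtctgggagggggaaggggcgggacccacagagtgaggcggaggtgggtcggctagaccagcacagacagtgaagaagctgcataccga
Per3 (chr4:151044616-151044915, minus strand): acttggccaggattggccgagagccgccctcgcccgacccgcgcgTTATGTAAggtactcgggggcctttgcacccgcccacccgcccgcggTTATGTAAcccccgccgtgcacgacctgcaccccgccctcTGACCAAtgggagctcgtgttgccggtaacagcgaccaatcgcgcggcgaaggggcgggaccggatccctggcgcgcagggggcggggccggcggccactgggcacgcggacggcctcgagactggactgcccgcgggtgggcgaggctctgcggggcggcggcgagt

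The Arntl and Nfil3 windows show TNGGTCA, that of Ciart shows 3 E-boxes, and that of Per3 shows 2 D-boxes and 1 TNGGTCA. Of the TNGGTCA matches shown, that of Nfil3 has A or G at the N, and those of Arntl and Per3 do not. TNGGTCA was also found for Cry2 and Tef, both lower in DBA2/J hearts. The E-box was also found for Cry1, which was higher, and for Per1, Tef and Bhlhe41, which were lower. Counted by window, some of which overlap, 6 of the 21 windows of 16 clock genes held CACGTG, 6 held TNGGTCA, 1 held TTATGTAA and 1 held TTATGCAA. Over all 32851 windows the shares were 7.15%, 11%, 0.938% and 0.743% in that order. Dbp, Nr1d1 and Nr1d2 had no match in these windows. A match is a description of these letters and not a site.

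Of 37 sarcomere and Z-disc genes measured, 5 were higher (13.5%) and 6 lower (16.2%), against 8.67% and 4.82% of all genes, with a median difference of 0.062. Ankrd23, a stretch-responsive partner of titin, gave 12.28, 12.35 and 12.25 in DBA2/J hearts and between 10.93 and 11.71 (median 11.45) elsewhere (difference 0.87, adjusted p = 1.91e-05, limma). Telethonin (Tcap), which caps titin at the Z-disc, gave 12.55, 12.32 and 12.35 against 12.80 to 13.64 (median 13.54) (difference -0.94, adjusted p = 3.03e-05, limma). These were the list's apart genes, and neither had an array in common with another strain. Tcap was apart in 16 of 31 alternatives only, losing its place whichever DBA2/J array was left out, and Ankrd23 in all but the one with the atrial covariate.

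Skeletal actin (Acta1), a gene of the fetal and loaded heart, gave 13.99, 13.84 and 13.80 against 10.62 to 13.69 (median 12.54), a 2.47-fold difference. All 3 arrays lay above the rest, but A/J was close at a mean of 13.66, and the gene was not apart. Beta myosin (Myh7) differed by 0.79 with overlapping arrays and lost its call with the atrial covariate (0.55, adjusted p = 0.235, limma). The light chain Myl1 gave 7.89, 7.43 and 7.37 in DBA2/J hearts and between 7.75 and 12.34 (median 10.61) elsewhere, 8.04-fold lower in signal, with its difference at -1.99 under that covariate. The heart kinase Tnni3k gave 5.02, 5.19 and 4.91 against 5.10 to 8.99 (median 8.74), and C3HeB/FeJ (5.17) and A/J (5.64) were as low or nearly so, far from the remaining 3 strains at 8.76 to 8.96. A second Tnni3k probe set, brighter in heart, differed by only -0.086.

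Calcium signalling genes were among the apart genes on the higher side. Rcan1, a calcium-induced inhibitor of calcineurin, gave 10.52, 10.80 and 10.79 in DBA2/J hearts and between 9.13 and 10.16 (median 9.50) on the others (2.21-fold, adjusted p = 2.89e-07, limma). A second Rcan1 probe set differed by 1.26, and the gene was apart under every alternative run. Calsequestrin 2 (Casq2), the calcium buffer of the sarcoplasmic reticulum, gave 12.74, 12.60 and 12.56 against 11.90 to 12.41 (median 12.26), a difference of 0.43 that missed the threshold with the erythroid covariate (0.36, adjusted p = 0.0503, limma). The sodium-calcium exchanger Slc8a1 gave 10.10, 9.75 and 9.58 against 6.67 to 9.67 (median 8.49) (2.58-fold, adjusted p = 0.00127, limma) and overlapped with C3HeB/FeJ. Of 23 calcium-handling genes measured, 4 were higher (17.4%) and 2 lower (8.7%), against 8.67% and 4.82% of all genes, Sln being 1 of the lower ones.

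Membrane genes of the muscle cell included Cavin4, a coat protein of muscle caveolae (0.68), Slmap of the sarcolemma (0.48) and the coxsackievirus and adenovirus receptor Cxadr of the intercalated disc (0.79), all apart and higher. The desmosomal cadherin Dsg2 was apart and lower, with 9.45, 9.39 and 9.35 in DBA2/J hearts against 9.87 to 10.79 (median 10.37). Abcc8, the sulfonylurea receptor of atrial potassium channels, was apart with 6.91, 6.77 and 6.78 against 7.21 to 8.12 (median 7.86). Both kept their call but not their standing apart when the atrial level was a covariate, Abcc8 at -0.78 and Dsg2 at -0.92. Of 28 ion channel and gap junction genes, 2 were higher (7.14%) and 6 lower (21.4%), against 8.67% and 4.82% of all genes. The lower ones include the atrial genes Kcnj3 (-0.99) and Gja5 (-0.70), neither of which passed with that covariate. Kcnj3 is itself among the markers that make up the covariate, so its lost call is no separate result.

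The natriuretic peptide system held apart genes on each side. Corin, the protease that activates pro-ANP on the heart cell, gave 9.74, 10.06 and 9.72 in DBA2/J hearts and between 10.52 and 11.39 (median 11.02) elsewhere (2.16-fold lower, adjusted p = 4.82e-06, limma). Neprilysin (Mme), which degrades the peptides, gave 7.92, 7.70 and 7.75 against 5.53 to 7.22 (median 6.55) (2.55-fold higher, adjusted p = 7.18e-07, limma). No DBA2/J array overlapped with another strain's for either gene. The peptide genes themselves did not pass, with Nppa at -0.93 (adjusted p = 0.225, limma) and Nppb at 0.31 (adjusted p = 0.225, limma). With the atrial covariate Corin differed by -1.01 and Mme by 1.40, and Mme but not Corin was still apart.

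**Figure D4:**
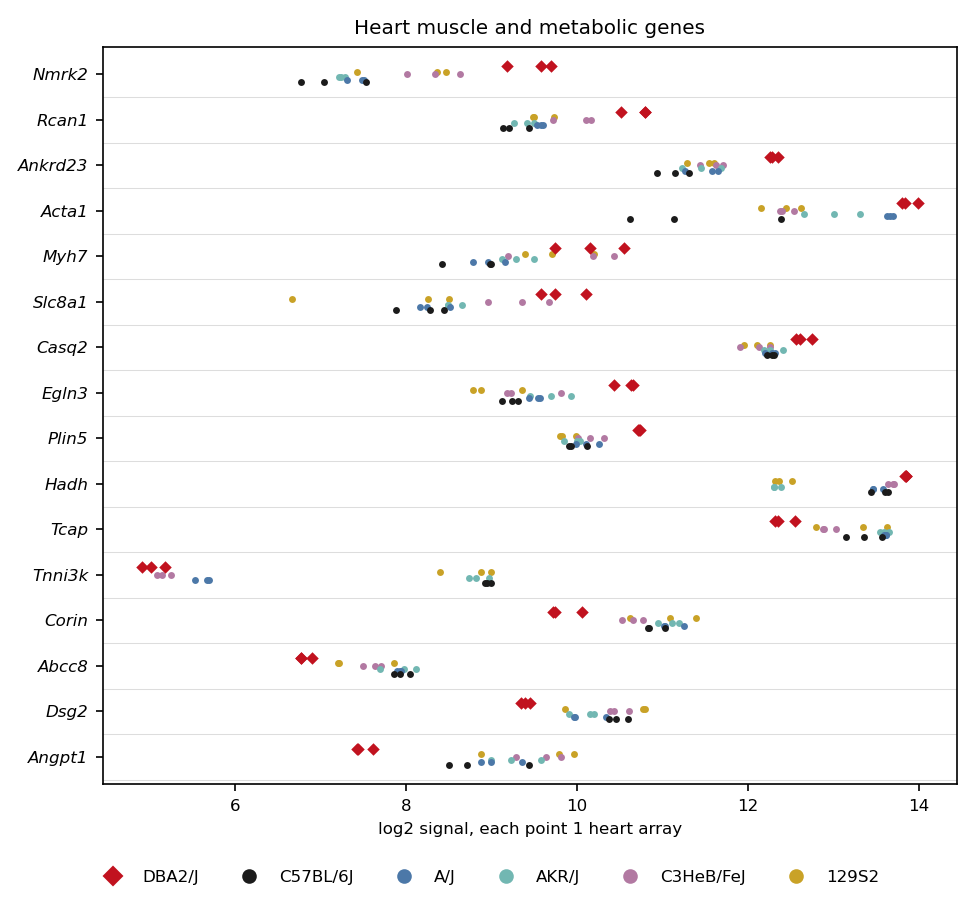
Log2 signal on each heart array (x axis) of 16 heart muscle and metabolic genes, DBA2/J as red diamonds above the other strains' circles. Diamonds stand clear to the right for Nmrk2, Rcan1, Ankrd23, Casq2, Egln3 and Plin5 and to the left for Tcap, Corin, Abcc8, Dsg2 and Angpt1, while for Tnni3k the C3HeB/FeJ and A/J circles sit beside them.

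Of 30 fatty acid oxidation genes measured, 8 were higher (26.7%) and none lower, against 8.67% and 4.82% of all genes, with a median difference of 0.19. In this list 29 genes had a mean signal of at least 6 in heart, against 9424 of all 18193. The shares over all genes, here and for the other lists, were not matched for signal. Plin5, which ties lipid droplets to mitochondria, gave 10.73, 10.73 and 10.71 in DBA2/J hearts and between 9.80 and 10.32 (median 10.00) elsewhere (difference 0.71, adjusted p = 5.77e-06, limma) and was the list's apart gene. Hadh, the third enzyme of the beta-oxidation spiral, gave 13.84, 13.85 and 13.83 against 12.30 to 13.71 (median 13.46) and was higher by 0.75, with AKR/J (12.33) and 129S2 (12.39) more than 1 unit below the remaining strains. The other 6 were Crat (0.46), Slc25a20 (0.30), Etfdh (0.29), Decr1 (0.23), Eci1 (0.22) and Fabp3 (0.16). The number that passed was 4 whichever DBA2/J array was left out, 2 with the atrial covariate and 5 with the erythroid one.

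Another droplet coat, Plin2, was apart at 0.58. Among 21 glucose genes, 4 were higher (19.1%, against 8.67% of all genes), namely Ugp2 (0.40), Tpi1 (0.32), Gbe1 (0.30) and Ldha (0.19), and none was lower. In the list of 82 respiratory chain subunits 7 were higher, 8.54% against the 8.67% of all genes, and none was lower. Among these were Sdhc (0.24), Ndufs7 (0.23) and Ndufb3 (0.23).

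No respiratory chain subunit was apart. Other mitochondrial genes were, named here after their values were seen and with no count over all mitochondrial genes. The higher ones include the complex I assembly factor Ndufaf5 (0.65), the complex III factor Bcs1l (0.53), the copper chaperone Cox11 (0.49), the ubiquinone enzyme Coq3 (0.54), the import factors Chchd4 (0.67) and Grpel2 (0.59), the stress protease Oma1 (0.59) and the asparaginyl-tRNA synthetase Nars2 (0.59). Apart and lower were the mitochondrial genes Dap3 (-0.33) and Fastk (-0.39).

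The family of genes named Mrpl or Mrps, subunits of the mitochondrial ribosome, was counted after it had been noticed. The count went by symbol, so subunits of that ribosome with other names are not in it. Of the 76 measured members of this family 34 were higher (44.7%) and none was lower, against 8.67% and 4.82% of all genes. The median difference was 0.22, against -0.0084 over all genes. Mrpl19 (0.61), Mrpl45 (0.61), Mrpl37 (0.43) and Mrps31 (0.33) were apart. Mrpl19 gave 8.89, 8.95 and 8.82 in DBA2/J hearts and between 7.99 and 8.48 (median 8.31) elsewhere, with no overlap. The number of higher members was 21, 21 and 23 without DBA2/J arrays 1, 2 and 3, 11 with the atrial covariate and 9 with the erythroid one, and the part of those markers in it was not tested further.

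Egln3, a prolyl hydroxylase that marks hypoxia-inducible factors for destruction and is itself induced by them, gave 10.63, 10.44 and 10.65 in DBA2/J hearts and between 8.78 and 9.93 (median 9.36) elsewhere (2.3-fold, adjusted p = 5.99e-06, limma). Its relative Egln1 was apart at 0.56. Nmnat1, the nuclear enzyme of NAD synthesis, was apart at 0.61 beside Nmrk2. Prkag3, a regulatory subunit of AMP-activated kinase (0.47), the retinoid receptor Rxrg (0.40) and Hsd11b1, which regenerates active glucocorticoid (0.78), were likewise apart and higher, although the lowest DBA2/J array for Prkag3 lay below 1 AKR/J array. These genes, Plin2, Cavin4 and Cxadr were chosen for mention after their values were seen.

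Tfpi, the inhibitor of the tissue factor pathway, gave 8.12, 7.76 and 7.72 in DBA2/J hearts and between 8.60 and 9.39 (median 8.93) elsewhere (2.11-fold lower, adjusted p = 8.41e-07, limma), and all 3 of its other probe sets passed in the same direction. Tissue factor (F3) differed by -0.44 and thrombomodulin (Thbd) by 0.41, neither apart. The endothelial transcription factor Fli1 was apart and lower, with 6.98, 7.23 and 6.78 against 7.54 to 8.18 (median 7.86), while its second probe set differed by 0.22 without passing. Higher and apart were the endothelial genes Btnl9 (1.08) and Mmrn2 (0.59), and the collagen receptor Itga1 (0.91). Of 12 endothelial markers 2 were higher (16.7%, against 8.67% of all genes), Kdr (0.58) and Cldn5 (0.55).

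Of 33 extracellular matrix genes, 1 was higher (3.03%) and 3 lower (9.09%), against 8.67% and 4.82% of all genes, with a median of -0.17. Timp3, an inhibitor of matrix metalloproteinases, was apart at -0.92 although its arrays overlapped with C57BL/6J, Fmod differed by -1.21 and Ccn2 by -0.82, while the basement membrane collagen Col4a1 was higher by 0.55. In the list for ectopic calcification, 1 of 16 genes was higher (6.25%) and 2 lower (12.5%). Alpl, the phosphatase that removes the mineral inhibitor pyrophosphate, differed by 0.37, Bmp4 by -0.55 and the carboxylase Ggcx by -0.87. Abcc6, the gene in which DBA/2 carries a splice allele linked to heart calcification, was dim at 3.98, 4.24 and 4.18 in DBA2/J hearts and between 4.11 and 4.50 (median 4.32) elsewhere, and did not pass (-0.19, adjusted p = 0.154, limma).

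Of 15 heat shock genes 5 were higher (33.3%, against 8.67% of all genes) and none lower, led by Hsph1 (0.90) and Dnaja1 (0.60), with a median of 0.30. The mean signal of this list was higher in AKR/J (11.54) than in DBA2/J (11.24). It was 11.07 in C3HeB/FeJ, 10.77 in C57BL/6J, 10.52 in A/J and 10.38 in 129S2. Of 16 immediate-early genes none was higher and 5 were lower (31.2%, against 4.82% of all genes), with a median of -0.46. Fos gave 5.98, 6.13 and 6.06 in DBA2/J hearts and between 5.69 and 10.98 (median 7.96) elsewhere, a tight group inside a wide range, with a difference of -2.03 (adjusted p = 0.0297, limma). Nr4a1 differed by -1.37 and Dusp1 by -0.64. None of either list passed with the atrial or the erythroid covariate, although Hsph1 still differed by 0.91 with the erythroid one (0.50 with the atrial one). Of the heat shock genes none passed without DBA2/J array 3, nor of the immediate-early genes without array 1. Leaving out array 1 or 2 kept 3 heat shock genes past the test, and leaving out array 2 or 3 kept 1 immediate-early gene.

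Of 63 glutathione and aldehyde genes 3 were higher (4.76%) and 8 lower (12.7%), against 8.67% and 4.82% of all genes, with a median of -0.056. Besides Aldh9a1, Gclm, the regulatory subunit of glutathione synthesis, differed by -0.78, the peroxidases Gpx1 and Gpx3 by -0.68 and -1.52, and Gstt2 by -0.62. The Gpx3 call was lost with the atrial covariate, and those of Gclm and Gpx1 with the erythroid one. Mgst3 was apart and higher at 0.47. Outside the list, the oxidases Fmo1, with 8.06, 7.88 and 7.98 in DBA2/J hearts and between 8.54 and 9.23 (median 8.78) elsewhere, and Xdh, with 7.20, 6.98 and 7.05 against 7.45 to 8.57 (median 8.33), were apart and lower. Glutamine synthetase (Glul) gave 9.38, 9.61 and 9.73 against 10.30 to 11.01 (median 10.68) (2.13-fold lower, adjusted p = 5.02e-07, limma), and epoxide hydrolase Ephx1 was lower by 0.81. Fmo1, Xdh and Glul had no overlap with other strains. Fmo1 and Glul were apart with both covariates and Xdh with the erythroid one, and all 4 genes were chosen after their values were seen.

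Of 14 MHC class I genes 3 were higher (21.4%, against 8.67% of all genes), H2-K1 by 1.56 and H2-D1 by 0.98, but H2-K1 was at or above the DBA2/J level in C57BL/6J (11.18) and 129S2 (10.63), and near 7.5 to 8.1 in the other 3 strains. These genes differ in sequence between strains, which bears on how probes hybridise. Of 30 interferon-stimulated genes 1 was higher (3.33%) and 3 lower (10%), against 8.67% and 4.82% of all genes. Ifi202b, outside that list, gave 7.63, 7.60 and 7.63 in DBA2/J hearts and strain means of 4.05 to 6.97 elsewhere, and was apart, with AKR/J nearest at a mean of 6.97. The endotoxin-binding protein Lbp was apart at 0.99 and the chemokine Ccl2 at 0.55. No lymphocyte, macrophage, neutrophil or natural killer marker passed among 9, 11, 7 and 10 measured. Of these, 2, 9, 0 and 0 had a mean signal of at least 6 in heart, so apart from the macrophage list the lack of calls says little about the cells. The mean of the lymphocyte list was 4.931 to 4.955 on the DBA2/J arrays and 4.961 to 5.303 on the others.

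Of 17 measured genes with known DBA/2 alleles or copy-number changes between strains, 1 was higher (5.88%) and 2 lower (11.8%), against 8.67% and 4.82% of all genes. Myo5a, the dilute gene, gave 4.03, 4.31 and 4.27 in DBA2/J hearts and between 4.67 and 5.51 (median 4.89) elsewhere, and was apart (-0.75, adjusted p = 0.000244, limma). Alad, a haem enzyme whose copy number varies between strains, gave 10.66, 10.63 and 10.67 against 8.69 to 10.71 (median 10.16). Its strain means ran from 8.80 in C57BL/6J to 10.59 in C3HeB/FeJ, so DBA2/J shared its high level with 1 strain and was not apart. Tnni3k, lower by the probe set kept but not by its brighter one, was the third.

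Most of the apart genes were also higher or lower in another DBA2/J tissue. In the same contrast within each tissue, kidney passed in the heart direction for 128 of the 224, lung for 95, brain for 90, liver for 74 and testis for 61. Of the 147 higher genes 76 were higher in kidney too, where 12.4% of all genes were, and of the 77 lower genes 52 were lower (11.6% of all genes). The counts for lung were 50 higher (6.71% of all genes) and 45 lower (5.34%). The counts for brain were 48 higher (5.85% of all genes) and 42 lower (4.66%). The counts for liver were 38 higher (5.55% of all genes) and 36 lower (6.47%). The counts for testis were 28 higher (7.43% of all genes) and 33 lower (9.01%). At least 1 other tissue passed for 162 genes and all 5 for 33, among them Sfi1, Zfp277, Trappc6a, Gm5817, Serpina1b, Pfn1 and Xdh. Without DBA2/J arrays 1, 2 and 3, where fewer genes were apart, at least 1 other tissue passed for 103, 103 and 89. The shares of all genes that pass in at least 1 or in all 5 other tissues were not counted, so these totals are a description. Profilin 1 (Pfn1), an actin-binding protein, gave 11.27, 11.29 and 11.23 in DBA2/J hearts and between 9.95 and 10.59 (median 10.11) in other hearts, and its differences elsewhere ran from 0.58 in testis to 1.06 in liver. Stab2 was higher in lung (4.18), brain (3.44), kidney (2.15) and testis (0.84), and lower in liver (-0.30, adjusted p = 0.0346, limma).

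For 62 of the 224 genes no other tissue passed in the heart direction, 47 of them higher and 15 lower. Neb, Rcan1, Ankrd23, Casq2, Cavin4, Tuba8, Egln1, Itga1, Angpt1, Abcc8 and Tfpi belong to these. No matching share over all genes was counted for the 62. A test of the heart difference minus the mean of the other 5 tissues passed for 192 of the 224 genes, 185 of them further out in heart, against 20.5% of all genes. The heart values that chose the genes enter that contrast, so these counts are a description. Hamp2 was higher in liver (2.53) and lung (1.12) as well, and Nmrk2 was 0.49 in lung and between -0.19 and 0.03 in the other 4.

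Some genes ran in opposite directions between tissues. Corin, lower in DBA2/J hearts, was higher in DBA2/J liver by 2.72 (adjusted p = 3.94e-11, limma). Mme, higher in hearts, was -2.01 in liver and -1.02 in kidney. Gnptab, which builds the lysosomal targeting tag and was 0.83 in heart, was lower in all 5 other tissues, from -0.16 in brain to -0.75 in liver. Its probe sets did not all show the heart difference, 1 of the other 2 giving 0.60 and the other -0.12. The plot of differences by tissue shows these patterns for 27 genes.

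**Figure D5:**
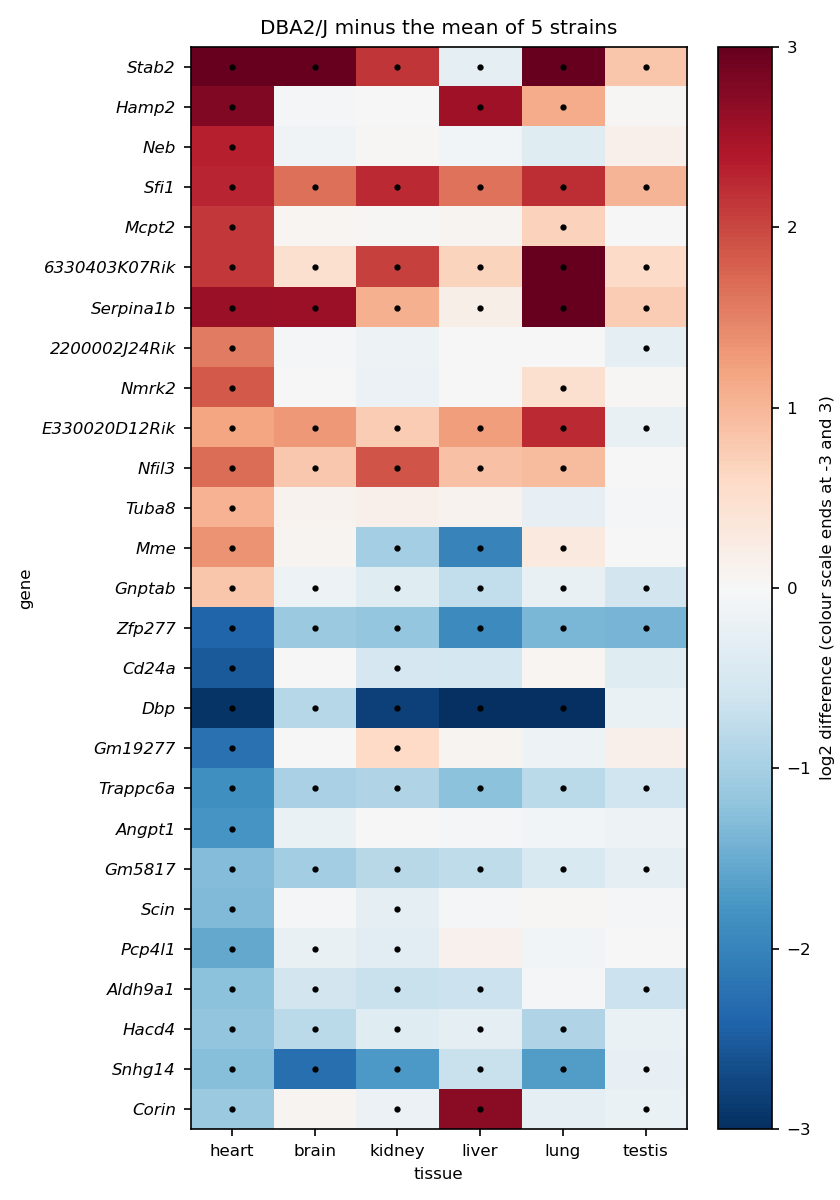
Log2 difference of DBA2/J minus the mean of 5 strains in heart (left column) and 5 other tissues for 27 genes, red higher and blue lower in DBA2/J, with a black dot where the adjusted p is under 0.05. Sfi1, Zfp277 and Trappc6a keep 1 colour in every tissue, Neb and Angpt1 carry a dot in heart alone, and Corin and Mme change colour in liver.

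The apart genes were unevenly spread over chromosomes. Chromosome 1 held 33 among 1057 tested (3.12%) and chromosome 11 held 35 among 1443 (2.43%), against 1.23% overall and 0.324% on the X. On chromosome 1 the neighbours Tmco1 (0.42), Aldh9a1 and Mgst3 were all apart, 2 of them higher and 1 lower. There were 8 further pairs of neighbours, of which Plin5 with Lrg1 (0.51) was higher at both genes and Tcap with Stard3 (-0.59) lower at both. Nr1d2 with Nkiras1 (0.64), Zzef1 (-1.15) with Cyb5d2 (0.72) and 6330403K07Rik with Wscd1 (-0.43) moved in opposite directions. Sft2d2 (-0.79) and Tiprl (0.43), on chromosome 1, also moved in opposite directions. Neighbours by the GRCm38.p6 gene order are named without coordinates, since no label names a genome build.

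Other probe sets of the same genes bear on these values. Of the 224 genes 122 had another single-gene probe set, and in 74 of them at least 1 passed in the same direction. In 47 none passed and in 2 at least 1 passed in the opposite direction. Of all 196 such probe sets 100 passed in the heart direction. The matching shares over all genes and their other probe sets were not counted, so these counts are a description. No other probe set passed for Hamp2, Sfi1, Zfp277, Trappc6a, Fli1, Cox11, Cyb5d2, Grpel2, Itga1, Lbp, Mrps31, Nars2, Wscd1 and Zzef1, and only some did for Clock, Cxadr, Dsg2, Gnptab, Mrpl19, Sft2d2 and Slmap. For Dbp (-2.46), Cd24a (-1.77 and -2.25), Angpt1, Tfpi and Rcan1 the other probe sets passed in the same direction, while Stab2, Neb, Mcpt2, Nmrk2, Corin, Casq2 and Tcap rest on 1 probe set each.

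Many of the smaller differences needed all 3 DBA2/J arrays. Whichever array was left out, Btnl9, Casq2, Cavin4, Cirbp, Coq3, Cox11, Cyb5d2, Dsg2, Ephx1, Ifi202b, Lbp, Mrpl45, Mrps31, Nmnat1, Nr1d1, Plin2, Rxrg, Slc25a35, Slmap, Tcap, Timp3 and Tiprl were no longer apart. Atp23, Clock, Cry1, Cxadr, Cyp2u1, Stard3, Ccl2, Mmrn2, Prkag3 and Wscd1 were lost without 2 of the 3, and Cd24a, Dap3, Fastk, Myo5a, Nars2 and Nkiras1 without array 1, Hsd11b1, Lrg1 and Mrpl37 without array 2, and Egln1, Grpel2 and Rps2 without array 3. Among genes that were called but not apart, the calls of Ccn2, Cldn5, Col4a1, Decr1, Dnaja1, Dusp1, Eci1, Etfdh, Fabp3, Fmod, Fos, Kdr, Ldha, Myl7, Ndufb3, Ndufs7, Per1, Sdhc and Sln were lost whichever DBA2/J array was left out. Those of Alas2, Alpl, Bhlhe41, Gja5 and Myh7 were lost without 2 of the 3, and those of Gpx3, Hsph1, Nr4a1 and Ugp2 without 1. Stab2, Hamp2, Neb, Sfi1, Mcpt2, Nmrk2, Nfil3, Rcan1, Zfp277, Trappc6a, Pcp4l1, Gm5817, Glul and Fmo1 were apart under every alternative in which they were tested. Stab2, Neb, Sfi1, Mcpt2 and Nfil3 had a mean heart signal below 6 and so were not tested under the signal filter.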

How the data were processed

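RNA of whole organs of male mice from 6 inbred strains was measured on Affymetrix mouse arrays, 3 per strain and tissue. The deposited values are log2 signals per probe set, made by the authors with RMA (background correction, quantile normalization and probe-set summary) per the submitters' processing notes, which give no version. Raw scanner files were not used here.

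Of 45101 probe sets, 34945 map to 1 gene in the platform annotation. For each of 18193 genes the probe set with the highest mean over all arrays was kept. In R 4.3.3, limma 3.58.1 (lmFit and eBayes) fitted 1 mean per strain to the 18 heart arrays. The contrasts were DBA2/J minus the mean of the 5 other strain means and DBA2/J minus each strain, with Benjamini-Hochberg adjustment over all genes and a threshold of 0.05. Each other tissue was fitted in the same way, and the heart difference was set against the mean of the other tissues' differences in 1 fit of all arrays. No filter on low signal was used, and array number limits the precision.

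Named genes are the 12 higher and 12 lower apart genes with the largest distance to the nearest strain, the 6 of each direction with the largest excess over other tissues, up to 4 passing genes of each list with the largest difference, genes in the 6 longest runs of neighbouring apart genes, genes with known DBA/2 alleles, and defining markers of lists that move with strain. Other genes named, which include further clock, fatty acid oxidation, mitochondrial, vessel and detoxification genes, were chosen after their values were seen. The members and lists were chosen with earlier results of these data known. Simulated data with known differences gave calls for 83.6%, 98.5% and 98.5% of genes changed by 0.5, 1 and 2 log2 units in the DBA2/J contrast of all 18193 genes, and apart status for 46.3%, 95.5% and 98.5%.

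Title numbers do not pair the strains: the deviations of same-numbered heart arrays of different strains had a median correlation of 0.032. Alternatives covered the probe set choice, normalization, filter, test settings, left-out arrays, blocks, and, chosen after seeing the data, the atrial and erythroid levels as covariates.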

Additional observations from a re-analysis of the deposited data

Results flagged for a closer look

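The heart difference of most apart genes departed from the mean difference of the other 5 DBA2/J tissues in a test of that departure (limma, arrays of all 6 tissues, Benjamini-Hochberg adjustment). The 14 given here are named genes above or ran against several tissues. Because the heart values chose the genes, the departures are descriptions. On the log2 scale, heart minus other tissues, the departure was 2.41 for Neb (adjusted p = 1.22e-05, limma), 2.06 for Hamp2, 1.95 for Mcpt2, 1.77 for Nmrk2 and 1.68 for 2200002J24Rik. Among the lower genes it was -2.37 for Gm19277, -2.25 for Cd24a, -1.68 for Angpt1, -1.44 for Pcp4l1 and -1.23 for Scin.

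Besides 2200002J24Rik, with an opposite call in testis, and Gm19277, with one in kidney, 4 genes had opposite calls in another tissue. Mme departed by 1.88 and Corin by -1.54, each with an opposite call in liver, and Mme also in kidney. Gnptab departed by 1.24, with opposite calls in all 5 other tissues. Atp23, a protease that helps to assemble the mitochondrial ATP synthase, was 0.58 in heart and departed by 0.79, with opposite calls in 4 of the other tissues.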

How the results depend on the processing

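The counts depended on the rule for standing apart, on the fit, on the arrays and on the cell markers. Leaving out 1 heart array gave 788 to 2038 genes higher, 428 to 1124 lower, 72 to 239 apart and higher, 45 to 94 apart and lower, 89 to 222 apart genes past the test in another tissue, and 2514 to 4012 genes whose heart difference departed from the other tissues. The lowest counts came without a DBA2/J array. With the arrays of all tissues fitted together there were 2726 higher, 1793 lower, 449 and 202 apart, and 395 past the test elsewhere. With the atrial covariate these were 674, 394, 53, 44 and 75, and with the erythroid one 931, 427, 62, 28 and 60. Calling genes apart where the mean difference passed and the arrays did not overlap gave 681, 257 and 523, and asking for pairwise differences of at least 0.5 gave 50, 46 and 71. Renormalization, median centring, a signal filter, other probe set rules and a trended prior kept every count within 1.5 times.

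A few single genes turned sign. With the atrial covariate Myl7 was 0.031, Myl4 0.27 and Nppa 0.38, all without a call. Each of these genes is a member of the atrial list whose mean is the covariate. Their values near 0 therefore follow in part from the fit itself and are no separate result. With the probe set highest in heart Gnptab was -0.12, Wscd1 0.0079 and Snhg14 1.05, of which Snhg14 passed in the new direction. Why the probe sets differ was not tested.

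A replicate block by title number gave 1355 genes higher, 782 lower, 174 apart and 125 past the test elsewhere, although the numbers do not pair the strains. Taking the animal as a random block gave 3808 departures from the other tissues, against 3723 without it.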

Other observations

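Sterol and drug-metabolising genes held isolated differences in DBA2/J hearts. Of 17 cholesterol synthesis genes 3 were higher (17.6%) and 2 lower (11.8%), against 8.67% and 4.82% of all genes. Hsd17b7, a reductase of the late pathway, gave 8.39, 8.31 and 8.06 in DBA2/J hearts and between 6.13 and 8.89 (median 6.38) elsewhere, and was higher by 1.14 ± 0.079 (SE, adjusted p = 4.54e-08, limma). Its strain means elsewhere ran from 6.18 to 8.80, and it was not apart. Hmgcs1, an early enzyme of the pathway, differed by 0.42 and the desaturase Sc5d by -0.77. Of the 2 other Sc5d probe sets 1 passed in the same direction. The Sc5d probe set highest in heart did not pass (-0.14, adjusted p = 0.16, limma). Of 70 cytochrome P450 genes 2 were higher (2.86%) and 3 lower (4.29%), and Cyp2u1, a fatty acid hydroxylase, was apart with 7.01, 6.73 and 6.86 in DBA2/J hearts and between 5.81 and 6.59 (median 6.12) elsewhere.

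Among 46 ribosomal protein genes 3 were higher and 3 lower (6.52% each), near the 8.67% and 4.82% of all genes. Rps2 of the small subunit was apart at -0.45 (adjusted p = 6.51e-05, limma). The immunity-related GTPase Iigp1 was lower by 1.09 and the pericyte marker Rgs5 higher by 0.59, neither apart.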
